A study of Mus musculus with 30 samples.

Results

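The liver transcripts of 5 DBA/2 (D2) mice and 5 C57BL/6 (B6) mice, 10 of the 30 mice of the series, were compared after feeding on a diet enriched with iron at 8.3 g per kg. The arrays were chosen by their titles, which give the strain and the diet. The remaining mice were of the same 2 inbred strains, 5 of each on a balanced diet with 200 mg of iron per kg and 5 of each on a deficient diet with less than 3 mg per kg. Total RNA of each liver was labelled with the dye Cy3 and hybridised alone to a 1-colour Agilent whole mouse genome array. The labels name no engineered allele. Sex, age, weeks on the diet and the hour of sampling were not stated in them. Mice of a group are numbered 1 to 5 only to name them.

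Liver cells read the body's iron store largely through bone morphogenetic protein 6 (BMP6), which sinusoidal endothelial cells secrete. On hepatocytes it binds a receptor complex that phosphorylates SMAD proteins, which switch on the hepcidin gene Hamp together with brakes on the same signal such as Smad7, and hepcidin then blocks iron export into the blood. B6 and D2 mice are known to handle dietary iron differently, and the series title singles out Bmp6, Smad7, Id1 and Atoh8 as genes under the control of liver iron.

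Values are log2 of the quantile-normalized signal, and a difference is D2 minus B6, so that 1 stands for a 2-fold higher and -1 for a 2-fold lower signal in D2. Of the probes for genes, 72.2% ± 3.80 (SD, n = 5) were well above background on the B6 arrays and 68.8% ± 3.30 (SD, n = 5) on the D2 arrays. The Y-linked genes Ddx3y, Eif2s3y, Kdm5d and Uty were above background on all 10 arrays. The scans fall on 3 days, with 0, 1 and 4 B6 arrays and 2, 1 and 2 D2 arrays on days 1, 2 and 3, so strain and scan day are partly mixed. The first principal component of the 10 arrays held 57.7% of the variance and separated the strains, and the second held 17.2%, with B6 mouse 2 (-44.4) and D2 mouse 1 (45.9) at its ends. Nothing in the labels says more of how the mice were housed, and p-values measure the spread between these mice.

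Of 21071 genes tested, 7471 (35.5%) differed between the strains on enriched iron (limma, Benjamini-Hochberg adjusted p below 0.05), 3816 (18.1%) higher and 3655 (17.3%) lower in D2. Differences of at least 2-fold were called for 1607 genes (7.63%), 898 higher (4.26%) and 709 lower (3.36%) in D2. The 5 D2 values lay wholly above the 5 B6 values for 3098 genes (14.7%) and wholly below for 2726 (12.9%). The shares of 18.1% higher and 17.3% lower are the background for each list count on enriched iron below. The median difference over all genes was -0.03. Without any normalization between arrays that median moved to -0.29, and 20.4% instead of 51.1% of the calls were higher in D2, so small D2 excesses depend on the scaling.

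Much of this gap was present on the other diets too. On balanced iron 6335 genes (30.1%) differed between the strains, 17.2% higher and 12.9% lower, and on deficient iron 5988 (28.4%), 14.9% higher and 13.6% lower. In all, 4687 of the 7471 genes were called in the same direction on balanced iron. The gap itself differed between enriched and balanced iron for 234 genes (1.11%; limma, adjusted p below 0.05), higher for 90 (0.427%) and lower for 144 (0.683%). Among the 90, a fall from balanced to enriched iron was called in B6 for 86 and a rise in D2 for 2. Among the 144, a rise was called in B6 for 120 and a fall in D2 for 2. Counts of rises and falls with enrichment, here and below, are of called changes. The adjustment was made separately for each strain, so an uncalled D2 change is not an absent one. These genes were also chosen by the difference between the changes of the 2 strains. Without normalization between arrays 50 gaps were higher and 844 lower. From balanced to enriched iron 1245 genes (5.91%) changed in B6, 3.35% higher and 2.56% lower, and 19 (0.0902%) in D2, 0.0712% higher and 0.019% lower. Against deficient iron the gap differed for 141 genes (0.669%), higher for 75 (0.356%) and lower for 66 (0.313%), and 66 genes differed from both diets. These contrasts share the enriched arrays with the strain comparison and are therefore not independent of it.

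The title genes were all lower in D2 livers on enriched iron. The study picked them from these very livers, which makes their direction no independent evidence. Bmp6, the secreted ligand itself, read 11.06, 11.02, 11.10, 10.90 and 11.20 in the 5 B6 mice and 9.76, 9.96, 9.92, 9.75 and 9.56 in the 5 D2 mice. Every D2 value lay below every B6 value, a 2.41-fold lower signal (log2 -1.27, SE 0.08, limma adjusted p = 2.11e-12). On balanced iron the Bmp6 difference was -0.45 and on deficient iron -0.19, and the gap was wider on enriched iron than on either (adjusted p = 5.34e-04 and 1.28e-05). From balanced to enriched iron Bmp6 rose by 1.61 in B6 and by 0.80 in D2. Within scan days 2 and 3 the difference was -1.11 and -1.20.

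The known SMAD targets among them were lower as well. Smad7, an inhibitory SMAD that shuts the receptor down, read 11.86, 12.81, 12.20, 12.18 and 12.21 in B6 and 10.89, 10.04, 11.15, 11.03 and 10.05 in D2. The groups did not overlap, and Smad7 was 3.08-fold lower in D2 (log2 -1.62, SE 0.22, limma adjusted p = 9.85e-07). On balanced iron its difference was 0.03, and the widening to enriched iron was -1.66 (SE 0.31, adjusted p = 0.00557). Id1, a repressor of helix-loop-helix transcription factors, read 12.63, 14.18, 13.14, 12.77 and 12.76 in B6 and 11.84, 10.96, 11.83, 11.84 and 10.42 in D2, again without overlap (log2 -1.72, SE 0.31, adjusted p = 6.98e-05). Atoh8, a helix-loop-helix factor, read 11.49, 11.42, 10.91, 11.17 and 11.20 in B6 and 10.31, 9.61, 10.55, 10.27 and 9.49 in D2. No D2 mouse reached the lowest B6 mouse, and the difference was -1.19 (SE 0.20, adjusted p = 2.87e-05). For Id1 and Atoh8 the widening from balanced iron did not pass (adjusted p = 0.277 and 0.143). Within scan day 2 the differences were -1.67 for Smad7, -2.35 for Id1 and -0.86 for Atoh8, and within day 3 -1.65, -1.43 and -1.23.

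**Figure D1:**
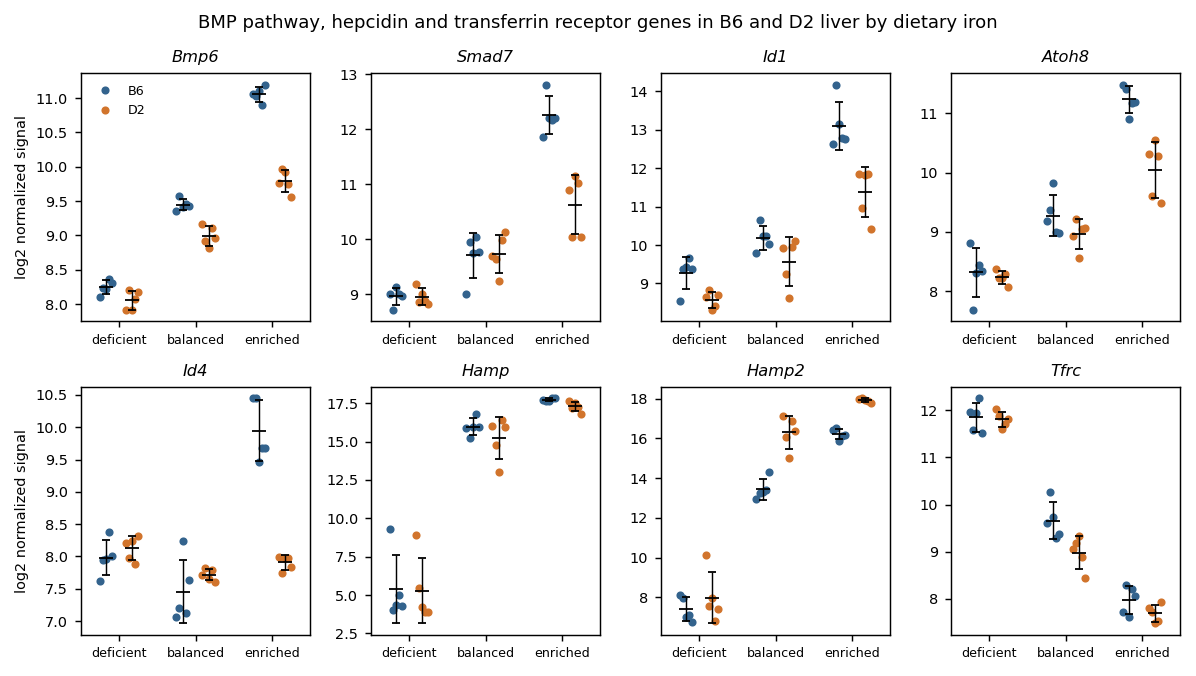
Log2 normalized signal (y axis) of Bmp6, Smad7, Id1, Atoh8, Id4, Hamp, Hamp2 and Tfrc in B6 (blue) and D2 (orange) liver on deficient, balanced and enriched iron (x axis). Each point is 1 mouse, and bars show the mean and SD of 5 mice. On enriched iron the 5 D2 values of Bmp6, Smad7, Id1, Atoh8 and Id4 lie below the 5 B6 values, while on balanced iron the strain differences of Smad7 (0.03) and Id4 (0.26) were not called.

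Id4, another member of the Id family, widened most between balanced and enriched iron among the BMP pathway genes named here. It read 10.45, 10.45, 9.46, 9.67 and 9.68 in B6 and 7.998, 7.74, 7.98, 7.97 and 7.84 in D2, with no overlap (4.10-fold lower, adjusted p = 3.03e-09). On balanced iron its difference was 0.26 (adjusted p = 0.346), and the change in the gap was -2.30 (SE 0.27, adjusted p = 7.00e-05). Id4 rose by 2.49 with enrichment in B6, against 0.19 in D2 (adjusted p = 1). Id3 read 14.28, 13.60, 13.41 and 12.87 in the 4 B6 mice with a usable spot and 11.93, 11.37, 11.82, 11.45 and 10.34 in D2, a difference of -2.16 (adjusted p = 3.96e-06). The fit used those 4 mice and did not impute B6 mouse 1.

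Fst and Bambi, which hold back the pathway, were lower in D2. Fst, the activin and BMP trap follistatin, read 9.39, 9.44, 9.33, 8.88 and 8.76 in B6 and 6.79, 7.15, 7.02, 7.23 and 6.72 in D2. Its groups stood apart, -2.17 on the log2 scale (adjusted p = 1.19e-07). Bambi, a decoy receptor, ran 9.51 to 10.17 in B6 and 8.90 to 9.48 in D2 on enriched iron (log2 -0.58, adjusted p = 0.00157). On balanced iron Bambi was higher in D2 (0.49, adjusted p = 0.00728), and the gap changed sign between the diets (adjusted p = 0.00507). The activin subunit genes Inhbe (1.75) and Inhbc (1.32), the ligand gene Bmp4 (0.90) and the ubiquitin ligase gene Smurf1 (0.84) were higher, and the SMAD co-repressor gene Skil was lower (-0.72). Another probe for Smurf1 gave -0.01 (adjusted p = 0.951), and another for Skil gave -0.56, uncalled.

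Taken as a list, 41 other genes of BMP and SMAD signalling were tested, of which 11 were higher, 7 lower and 23 not called in D2, against 18.1% higher and 17.3% lower over all genes. The list's median was 0.04, against -0.03 over all genes. The lower members Id3, Id4, Fst and Bambi rose with enrichment in B6, by 2.04, 2.49, 1.79 and 1.01. In D2 those changes were 0.90, 0.19, 0.11 and -0.06, none of them called.

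Hepcidin is encoded by Hamp, and Hamp2 is a close paralog of unsettled function next to it. Both promoters are shown because Hamp2 was called higher in D2 while Hamp was not called. The sequences are those of RefSeq for GRCm38.p6 and cover the 300 bases around the transcription start, on the minus strand at chr7:30943980-30944279 for Hamp and chr7:30924132-30924431 for Hamp2. Capitals mark GGCGCC, a BMP-responsive element bound by SMADs, and TTCNNNGAA, the core of a STAT site, each searched on both strands.
Hamp: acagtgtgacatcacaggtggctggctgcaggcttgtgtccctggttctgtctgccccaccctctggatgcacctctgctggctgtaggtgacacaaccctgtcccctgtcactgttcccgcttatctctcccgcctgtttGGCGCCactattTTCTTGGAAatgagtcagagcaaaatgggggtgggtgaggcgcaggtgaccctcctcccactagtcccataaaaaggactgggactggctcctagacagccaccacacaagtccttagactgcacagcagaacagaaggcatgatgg
Hamp2: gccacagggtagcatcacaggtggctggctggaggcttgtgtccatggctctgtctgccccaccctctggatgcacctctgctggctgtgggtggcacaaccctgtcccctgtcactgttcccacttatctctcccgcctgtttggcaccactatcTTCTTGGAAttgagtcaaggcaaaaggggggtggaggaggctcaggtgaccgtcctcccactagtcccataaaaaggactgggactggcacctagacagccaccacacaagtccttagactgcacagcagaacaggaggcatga
Over 297 aligned bases 276 (92.9%) were identical. Hamp holds GGCGCC at bases 142 to 147 of the window, where Hamp2 has G4A, counted from 1 at the first base of the motif in Hamp. Both hold TTCTTGGAA, at bases 154 to 162 in Hamp and 157 to 165 in Hamp2. GGCGCC occurred in 13.4% of 27025 promoters of this length and TTCNNNGAA in 9.55%. A match is a description of these letters, and the reference sequence says nothing of differences between D2 and B6.

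On enriched iron Hamp read 17.68, 17.66, 17.64, 17.84 and 17.85 in B6 mice and 17.63, 17.17, 17.55, 17.27 and 16.82 in D2 mice. Every D2 mouse was below every B6 mouse, yet the difference of -0.45 (SE 0.85) did not pass in the fit of all 30 arrays (limma adjusted p = 0.733). That fit shares 1 spread, and on deficient iron, where Hamp averaged 5.38 in B6 and 5.29 in D2, the SD was 2.20 and 2.14 (n = 5 each), against 0.10 and 0.32 on enriched iron. With the 10 enriched arrays alone the adjusted p was 0.0338. With the slide as a block the value turned to 0.12 (adjusted p = 0.922), and within scan days 2 and 3 it was -0.11 and -0.35.

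Hamp2 was higher in D2. It read 16.42, 16.52, 15.86, 16.10 and 16.15 in B6 and 17.97, 18.04, 17.92, 17.87 and 17.77 in D2, with all D2 mice above all B6 mice. The difference was 1.71 (SE 0.43, 3.26-fold, adjusted p = 0.00263). On balanced iron it was 2.86. With enrichment Hamp2 rose by 2.78 in B6, and in D2 the change was 1.62 (adjusted p = 0.264). Signals of the Hamp and Hamp2 probes cannot be kept fully apart for genes this alike, since probe sequences were not used here.

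Around the receptor complex, 5 of 8 genes listed for iron sensing, with Egfr counted among them, were higher in D2 and 1 was lower. Over all genes 18.1% were higher and 17.3% lower. Without normalization between arrays 1 of the 8 was higher and 2 were lower. Hfe, the gene of the MHC-like protein whose loss causes hemochromatosis, read 12.77, 12.98, 12.94, 12.79 and 12.82 in B6 and 12.05, 12.11, 11.98, 12.03 and 12.10 in D2. The strains were cleanly apart, at -0.81 (SE 0.07, adjusted p = 2.03e-09), and nearly as far apart on balanced (-0.72) and deficient iron (-0.77). Egfr, a growth factor receptor gene, differed by 1.10 on enriched (adjusted p = 8.78e-05) and -0.34 on balanced iron (adjusted p = 0.222; change in the gap, adjusted p = 0.00903). With enrichment Egfr fell by 1.37 in B6. Tmprss6, the protease that cleaves the BMP co-receptor hemojuvelin, differed by 0.48 (adjusted p = 8.50e-04), Neo1 by 0.47 (adjusted p = 6.25e-05) and the transferrin sensor gene Tfr2 by 0.38 (adjusted p = 1.26e-05). Of the other probes, Neo1 had 1 at -0.07, uncalled, and 1 at 0.60, called, and Egfr had 1 of 5 uncalled (0.08). Without normalization between arrays Tmprss6, Neo1 and Tfr2 kept the direction but were no longer called. The protease gene Furin passed narrowly (0.25, adjusted p = 0.0298) and lost the call with scan day as a block (adjusted p = 0.0966).

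Among 28 genes of iron transport and storage 8 were higher and 6 lower in D2, against 18.1% and 17.3% over all genes. The list's median was -0.03. Tfrc, the receptor for transferrin-bound iron, was not called (-0.29, SE 0.18, adjusted p = 0.233), with 7.62 to 8.30 in B6 and 7.48 to 7.93 in D2. Its groups overlapped, whereas on balanced iron Tfrc was lower in D2 (-0.67, adjusted p = 0.00512). The ferrireductase genes of the Steap family, which reduce iron before transport, were split. Steap4 ran 9.77 to 10.33 in B6 and 10.999 to 11.44 in D2 (1.13, adjusted p = 3.93e-04). Steap3 (0.61; another probe 0.15, uncalled) was also higher, while Steap2, with 7.56, 7.60, 7.50, 7.78 and 7.72 in B6 and 6.35, 6.59, 6.63, 6.63 and 6.54 in D2, was lower (-1.09, adjusted p = 1.17e-05).

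Slc11a2, the transporter that carries ferrous iron, was higher in D2 (0.58, adjusted p = 1.42e-05), after a called change of -0.75 with enrichment in B6 against an uncalled -0.34 in D2. Its 2 other probes gave -0.01 and -0.24, neither called. Slc25a37, the mitochondrial iron importer mitoferrin 1, differed by 0.56 (adjusted p = 0.00305). Scara5, a ferritin receptor gene, differed by 2.503 (adjusted p = 0.00463), and it was above background in 4 of 5 B6 mice. The lower genes were Mon1a (-0.48), linked to ferroportin trafficking, Ncoa4 (-0.47), the receptor that sends ferritin to lysosomes, and the iron chaperone gene Pcbp2 (-0.42). For these 3 the difference on balanced iron was -0.54, -0.46 and -0.35. Another probe of Pcbp2 read 0.30 higher in D2 (adjusted p = 0.0360).

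Alad, the second enzyme of heme synthesis, which DBA/2 mice are known to carry in extra copies, read 13.49, 13.69, 13.43, 13.30 and 13.58 in B6 and 15.02, 15.12, 15.22, 15.17 and 15.35 in D2. The D2 values were 3.20-fold higher (log2 1.68, SE 0.08, adjusted p = 2.72e-15), and the difference was 1.66 on balanced and 1.47 on deficient iron. Of 11 heme synthesis genes 3 were higher and 0 lower, among them the mitochondrial transporter gene Abcb10 (0.50). The called share of 27.3% was below the 35.5% over all genes. Without normalization between arrays 1 was higher and 3 were lower, and with scan day as a block 3 and 2. That list does not hold the erythroid gene Alas2, described with the male-biased genes. Another probe of Abcb10 (-0.16) pointed the other way without being called. Hmox1, the heme oxygenase that frees iron from heme, read 11.15, 11.56, 11.89, 11.34 and 11.41 in B6 and 10.63, 10.56, 10.51, 10.47 and 10.57 in D2. It was lower in every D2 mouse (-0.92, adjusted p = 7.28e-06), as was the heme transporter gene Slc48a1 (-0.69), although another Slc48a1 probe read 0.17. The biliverdin reductase gene Blvra (0.49) was higher, and so was the heme exporter relative Flvcr2 (0.72), whose call ended with the slide as a block (adjusted p = 0.0960).

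Targets of NRF2, the transcription factor of the oxidative stress response, were lower more often than higher in D2. Of 33 tested NRF2 targets 18 were lower and 1 was higher, with a median of -0.49 against -0.03 over all genes. On balanced iron 7 were lower (median -0.13) and on deficient iron 21 (median -0.37). With enrichment 12 of them rose in B6 and 1 in D2. With scan day as a block 19 were lower, within scan day 3 11.

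Abcc4, an efflux pump for conjugates, read 10.47, 10.28, 10.005, 9.66 and 10.14 in B6 and 7.82, 7.80, 7.68, 7.50 and 7.84 in D2. It was 5.22-fold lower in D2 (adjusted p = 2.91e-14), and the gap was wider than on balanced iron (-1.13; change adjusted p = 5.34e-04). Akr1b8, an aldo-keto reductase gene, read 12.46, 12.46, 12.24, 11.73 and 12.50 in B6 and 10.94, 11.35, 11.19, 11.07 and 10.61 in D2. Its difference was -1.24 on enriched and -0.10 on balanced iron (change adjusted p = 0.00174). With enrichment it rose in both strains, by 2.04 in B6 and 0.89 in D2. The glutathione transferase genes Gsta2 (-1.40, 12.85 to 13.76 against 11.10 to 12.57) and Gsta1 (-1.12), which are alike in sequence, and the quinone reductase gene Nqo1 (-1.11, 10.56 to 11.17 against 9.37 to 10.01) were lower without overlap. Txnrd1, thioredoxin reductase, was the higher member (0.26, adjusted p = 0.0120), with overlapping groups and -0.04 within scan day 2.

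Metallothioneins, which bind zinc and copper, were split: of 8 genes with zinc transporters 1 was higher and 4 were lower. Mt1 was higher in D2 (1.05, adjusted p = 0.0399), a call that was lost without any 1 of 6 mice, and with scan day as a block (adjusted p = 0.0511). Mt3, read at 9.68 to 10.14 in B6 and 8.09 to 8.97 in D2, was lower (-1.24, adjusted p = 2.27e-05). Of 22 other antioxidant genes 4 were higher and 5 lower in D2, near the shares over all genes.

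Conjugation and oxidation enzymes held large gaps in both directions. Of 32 genes of glutathione, glucuronide and sulfate conjugation 14 were higher and 9 lower. Tpmt, which methylates thiopurines, ran 11.37 to 11.80 in B6 and 14.36 to 14.61 in D2 (2.90, adjusted p = 7.67e-18). Ugt1a9 (2.33) was also higher, and the bilirubin-conjugating Ugt1a1 was lower (-1.31). All 3 were called in the same direction on balanced and deficient iron, for example 2.68 and 3.02 for Tpmt. Mgst3, a microsomal glutathione transferase gene, was closer between the strains on enriched (0.51) than on balanced iron (2.18; change adjusted p = 0.00110), and it rose by 1.48 with enrichment in B6. Its call on enriched iron was lost with scan day as a block (adjusted p = 0.0566). Other Mgst3 probes read 0.37, uncalled, and 1.46, called, on enriched iron.

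Cyp1a2, a P450 of arylamine metabolism, read 12.16, 12.44, 12.46, 11.79 and 12.15 in B6 and 14.43, 14.63, 14.55, 14.48 and 14.61 in D2. It was 5.06-fold higher in D2 (adjusted p = 9.20e-14). Cyp3a13 (-3.12) and the oxysterol hydroxylase gene Cyp39a1 (-3.24) were lower on all 3 diets. Cyp2c23 was lower in D2 on every diet, with -2.48 on enriched, -3.66 on balanced and -4.38 on deficient iron. The gap was smaller on enriched than on balanced iron (change adjusted p = 0.0192), a call that ended with the slide as a block (adjusted p = 0.0623), and the B6 change with enrichment was -1.26. The bile acid transporter gene Slco1a4 read 13.77, 13.68, 13.69, 14.02 and 13.83 in B6 and 10.52, 10.50, 9.99, 10.22 and 10.84 in D2. It differed by -3.38, wider than on balanced (-2.07) or deficient iron (-1.52; adjusted p = 0.0330 and 0.00288). Cyp7a1, the rate-limiting enzyme of bile acid synthesis, was higher (0.96, adjusted p = 0.00230) with overlapping groups and was not called within scan day 3 (adjusted p = 0.0790). Another Cyp7a1 probe read 0.50, uncalled.

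The strain gap also shifted between diets for some of the genes known to differ between male and female mouse liver, which follow the pulse pattern of growth hormone. Of 25 male-biased genes 18 were higher in D2 and 0 lower, with a median of 0.98. On balanced iron 6 were higher and 1 lower, median 0.39. On deficient iron 13 were higher and 2 lower, median 0.51. The gap was higher than on balanced iron for 11 genes and higher than on deficient iron for 6. The 11 became 8 with the slide as a block and 3 within scan day 3. From balanced to enriched iron 17 fell in B6 (median -1.04), and 0 fell in D2 (median 0.06). Leaving out each enriched mouse in turn gave 18 to 20 higher genes, and scan day 3 alone gave 18.

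Hsd3b5, a steroid dehydrogenase gene of male liver, gave the largest value. All 5 B6 mice were at the signal floor of 3.92 and the D2 mice read 12.33, 11.75, 12.38, 12.72 and 10.60. The probe was above background on 2 of 5 B6 arrays, and the difference of 8.04 (adjusted p = 1.38e-09) depends on that floor. On balanced iron it was 1.21 (change adjusted p = 7.25e-04), and Hsd3b5 fell by 6.98 with enrichment in B6. Slco1a1, an organic anion transporter gene, read 8.38, 8.94, 9.30, 9.52 and 8.14 in B6 and 12.82, 12.91, 13.23, 13.18 and 12.93 in D2. The strains were 17.9-fold apart (log2 4.16, adjusted p = 2.22e-09), against an uncalled 0.40 on balanced iron. Nudt7, a peroxisomal CoA hydrolase gene, read 13.84, 14.01, 13.88, 14.05 and 14.11 in B6 and 16.46, 16.48, 16.66, 16.82 and 16.61 in D2 (2.63, adjusted p = 4.23e-12; balanced 1.16). For both genes the D2 change with enrichment was near 0, at 0.04 and -0.11, and was not called.

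Elovl3, a fatty acid elongase gene, ran 9.33 to 11.15 in B6 and 11.46 to 12.73 in D2 (2.03, adjusted p = 0.00139), where on balanced iron it stood at -0.92, uncalled. Alas2, the erythroid form of the initial heme synthesis enzyme and male-biased in liver, read 11.47, 11.32, 10.89, 11.09 and 10.91 in B6 and 13.53, 13.66, 13.69, 13.60 and 13.41 in D2. It was 5.44-fold higher (adjusted p = 8.14e-12), with a gap wider than on balanced (0.79) and deficient iron (1.14). Susd4 (3.90), the bile acid enzyme gene Cyp7b1 (2.59) and Serpina1e (0.91) were higher too. The steroid reductase gene Srd5a1 differed by 1.81 on enriched and -0.31 on balanced iron, but its other probe read -1.50 (adjusted p = 1.08e-06), so its direction depends on the probe. Alas2, Egfr, C6, Serpina1e, Mup1 and Mup3 count in the male-biased list and in 1 other list each.

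Major urinary proteins, pheromone carriers made by male liver, are encoded by near-identical genes, so probes can take up more than 1 of them. Of 4 tested 3 were higher and 0 lower. Mup5 read 15.33, 15.25, 15.55, 15.39 and 15.32 in B6 and 17.73, 17.72, 17.77, 17.57 and 17.43 in D2 (2.28, adjusted p = 2.25e-08; balanced 0.37). Mup3 (0.71) and Mup1 (0.37) were also higher, and all 3 gaps were higher than on balanced iron (adjusted p = 0.00433, 0.00733 and 0.0353). The change of Mup1 was not called with the slide as a block (adjusted p = 0.112). The sizes depend on the probe, since another probe of Mup3 gave 1.87 and others of Mup1 0.66 and 1.13.

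Of 31 female-biased genes 17 were lower and 3 higher in D2, with a median of -0.99 against -0.11 on balanced iron. On deficient iron 14 were lower and 3 higher, median -0.52. The gap was lower than on balanced iron for 3 genes and higher for 1, and within scan day 3 for 0 and 0. Against deficient iron the gap was lower for 0 and higher for 1 (limma). Leaving out 1 mouse gave 14 to 17 lower genes, and scan day 3 alone gave 11. With enrichment 8 rose in B6 and 1 fell. Slc22a26, an organic anion transporter gene, read 11.52, 11.56, 10.80, 10.34 and 11.35 in B6 and 4.96, 6.89, 5.57, 6.82 and 8.62 in D2, without overlap (-4.54, adjusted p = 1.29e-05). The P450 genes Cyp2b10 (13.30, 13.21, 13.74, 12.14 and 13.04 in B6 and 8.87, 10.08, 8.92, 9.32 and 10.72 in D2), Cyp2b13 and Cyp2b9 were lower, at -3.50, -3.76 and -3.41. On balanced iron those differences were -0.11, 0.53 and 0.47, none called, and the B6 changes with enrichment were 3.04, 3.71 and 3.35. These 3 genes are alike in sequence. Sult3a1, a sulfotransferase gene, was not well above background in any D2 mouse and ran 5.34 to 7.85 in B6, at least 5.14-fold higher there (adjusted p = 9.56e-06).

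Slc22a29, a further transporter gene of that family outside the list, shifted from 0.78 on balanced to -3.95 on enriched iron (change adjusted p = 0.0237). Cux2, a transcription factor of female liver, was lower (-2.08, adjusted p = 0.0275), and its call was lost without any 1 of 6 mice. The members higher in D2 included Sult2a8 (1.80), the neurotrophin receptor gene Ntrk2 (7.10) and the water channel gene Aqp4 (1.20), so the list did not move as a whole. Ntrk2 read 4.81, 5.91, 4.65, 3.94 and 4.28 in B6 and 11.90, 11.38, 11.96, 12.02 and 11.85 in D2, and its difference was nearly as large on balanced (6.88) and deficient iron (6.42). Of its other probes 1 read 6.62 and 1 read 0.45, the latter uncalled (adjusted p = 0.0713).

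**Figure D2:**
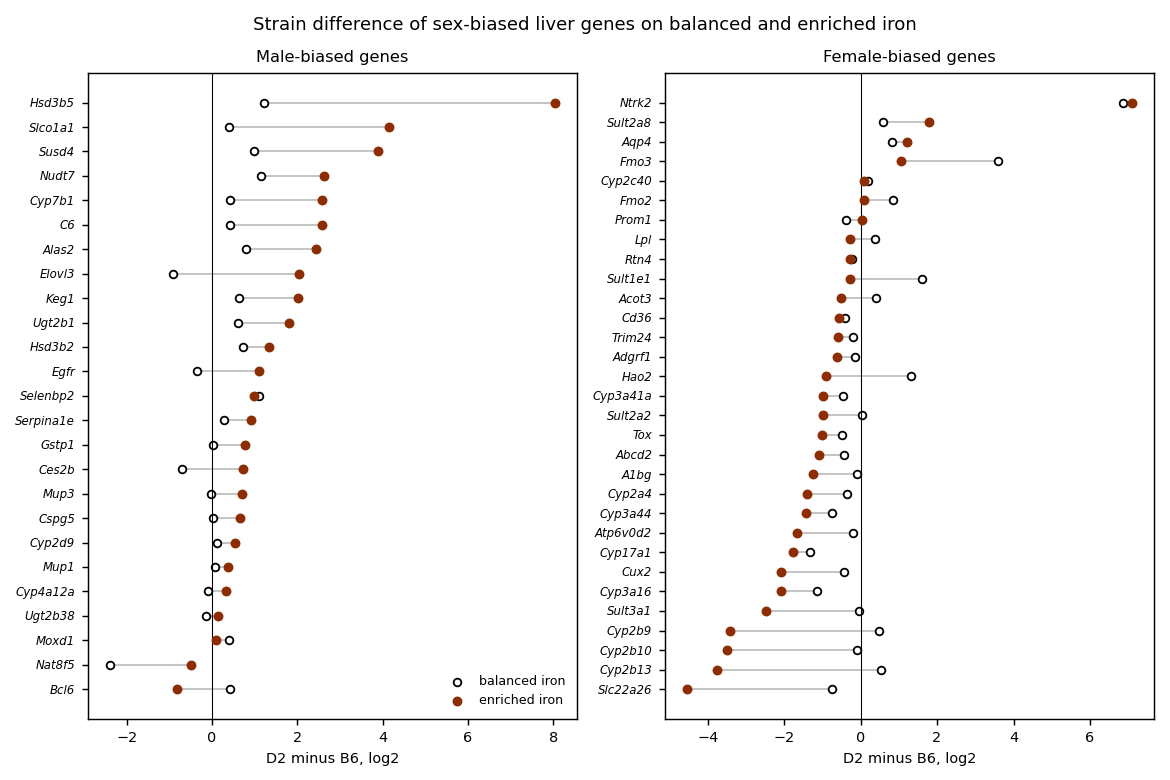
D2 minus B6 difference (x axis, log2) of each tested male-biased gene (left, 25 genes) and female-biased gene (right, 31 genes) on balanced iron (open circles) and enriched iron (filled circles), joined by a line per gene. The median moved from 0.39 to 0.98 for the male-biased genes and from -0.11 to -0.99 for the female-biased genes.

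The growth hormone pathway itself showed 5 higher and 3 lower genes of 16, against 18.1% and 17.3% over all genes. Ghr, its receptor, read 14.43, 14.45, 14.28, 14.17 and 13.89 in B6 and 14.91, 15.02, 15.07, 15.12 and 15.12 in D2. The difference of 0.81 (adjusted p = 5.14e-07) was larger than on balanced (0.16) and deficient iron (0.19; adjusted p = 0.0254 and 0.0448). With the slide as a block neither change was called (adjusted p = 0.0530 and 0.139), nor was the one from deficient iron with scan day as a block (adjusted p = 0.0533). Other Ghr probes gave strain gaps from 0.78 to 1.93. Igfals, which holds insulin-like growth factor 1 in the blood, differed by 1.49 and Igf1 by 0.49, with its other probes at 0.37, called, and 0.11, uncalled. Igfbp1, a binding protein raised in fasting, read 17.65, 17.68, 17.84, 17.37 and 17.44 in B6 and 15.38, 15.36, 15.12, 14.92 and 16.25 in D2, a lower level there (-2.19, adjusted p = 2.90e-07).

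Complement and coagulation genes, made by hepatocytes for the plasma, were higher more often than lower: 18 of 39 higher and 5 lower, median 0.14. Without normalization between arrays 12 were higher and 7 lower, median -0.01. On balanced iron the counts were 9 and 8 and on deficient iron 16 and 9, and 10 of the genes fell with enrichment in B6. C9, the pore-forming end of the membrane attack complex, read 11.38, 11.02, 10.92, 10.72 and 10.29 in B6 and 13.51, 13.72, 13.84, 13.95 and 13.66 in D2. It was 7.31-fold higher (adjusted p = 1.66e-10) against 0.58 on balanced iron (change adjusted p = 5.34e-04). C6 (2.57) and C8a (1.85, 4 B6 mice fitted) of the same complex were higher too, with 0.42 and 0.40 on balanced iron and adjusted p = 0.0297 and 0.00124 for the change.

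C4a (1.52) and the clotting factor gene F11 (2.06) were higher as well. Hc, the gene of complement C5, which D2 mice are known to lack as a protein through a frameshift, read 16.34, 16.32, 16.30, 16.32 and 16.20 in B6 and 15.34, 15.27, 15.24, 15.33 and 15.27 in D2. It was lower in D2 on enriched (-1.002), balanced (-1.53) and deficient iron (-1.32), and least so on enriched iron (change from balanced, adjusted p = 0.00839). C1qc (-0.86) and properdin, Cfp (-0.82), both products of macrophages, were lower.

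Interferon response genes, which encode antiviral proteins, were mostly higher in D2. Of 43 tested 35 were higher and 3 lower in D2, median 1.06. On balanced iron 28 were higher (median 0.70) and on deficient iron 28 (median 0.78), and no member's gap differed from balanced iron. Within scan day 3 the counts were 27 and 4, and without normalization 29 and 4. Gbp4, an interferon-induced GTPase gene, read 7.55, 7.62, 7.04, 7.09 and 7.45 in B6 and 10.73, 10.47, 10.52, 11.01 and 11.35 in D2. The D2 mice were 11.04-fold higher with no overlap (adjusted p = 5.65e-13). Gbp6 (2.45) and Mx2 (2.16) were higher too.

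Isg15, a ubiquitin-like protein gene, read 8.36, 8.78, 8.34, 8.60 and 8.57 in B6 and 10.40, 10.36, 11.02, 11.41 and 10.93 in D2 (2.29, adjusted p = 9.29e-09). Ifit1, which binds foreign RNA caps, read 8.95, 9.38, 8.58, 9.13 and 9.08 in B6 and 11.26, 11.27, 11.48, 11.65 and 11.47 in D2 (2.40, adjusted p = 8.87e-08). Neither gene overlapped between the strains. Their promoters are shown as examples of a core of the interferon-stimulated response element (GAAA, any 2 bases, GAAA), in capitals as found on either strand. RefSeq places them at chr19:34640639-34640938 on the plus strand and chr4:156200769-156201068 on the minus strand of GRCm38.p6.
Ifit1: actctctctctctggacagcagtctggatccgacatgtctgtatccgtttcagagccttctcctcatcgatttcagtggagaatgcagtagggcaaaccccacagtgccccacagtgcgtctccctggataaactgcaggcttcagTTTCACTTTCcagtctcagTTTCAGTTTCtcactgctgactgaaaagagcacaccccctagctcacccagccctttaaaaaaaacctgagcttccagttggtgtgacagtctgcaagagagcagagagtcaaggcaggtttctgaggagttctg
Isg15: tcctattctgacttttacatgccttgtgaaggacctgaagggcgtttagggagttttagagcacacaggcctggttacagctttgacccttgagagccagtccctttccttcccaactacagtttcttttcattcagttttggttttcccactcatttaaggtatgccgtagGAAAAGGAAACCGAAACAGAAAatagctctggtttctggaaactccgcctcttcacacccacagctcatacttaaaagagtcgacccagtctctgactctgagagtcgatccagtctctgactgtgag
Ifit1 holds 2 matches and Isg15 holds 3, which overlap. The motif occurred in 3.99% of all 27025 promoters and in 21 of the 32 list promoters in the table. Among the list's genes higher in D2 15 of 23 held it, and among the lower ones 2 of 2.

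The 3 lower members all belong to the Ifi200 family of DNA sensors, a cluster of similar genes known to vary in content between strains. Ifi203 read 10.55, 10.79, 10.35, 10.57 and 10.56 in B6 and 7.02, 7.21, 7.23, 7.08 and 7.06 in D2 (-3.45, adjusted p = 4.94e-15). Ifi205 differed by -2.90 and Ifi204 by -0.57. Another probe of Ifi203 was higher in D2 (1.12, adjusted p = 3.34e-04), so the family is uncertain. Of the same family, Ifi202b was above background in all D2 and no B6 mice, 11.50 to 12.04 in D2 and at least 212-fold higher there.

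In antigen presentation, 10 of 26 MHC genes and partners were higher and 3 lower (median 0.24), and 4 and 3 without normalization between arrays (median 0.05). Tap1, a subunit of the peptide pump, read 8.63, 8.80, 8.45, 8.29 and 8.73 in B6 and 10.34, 10.39, 10.47, 10.98 and 10.46 in D2 (1.95, adjusted p = 1.78e-10). The immunoproteasome genes Psmb9 (1.97) and Psmb8 (1.27) were higher without overlap. H2-Ea, a class II gene that the B6 haplotype is known to lack through a deletion, was above background in D2 alone (8.04 to 8.58), at least 20.02-fold.

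Acute phase proteins, secreted in inflammation, were higher for 16 of 29 and lower for 4 (median 0.36), and for 8 and 2 within scan day 3. Apcs, serum amyloid P, read 10.36, 10.16, 10.02, 10.42 and 10.49 in B6 and 12.37, 12.78, 12.94, 13.14 and 12.84 in D2. It was 5.75-fold higher (adjusted p = 1.34e-11) and differed by 2.90 on balanced iron. The fibrinogen gene Fga (1.48) and the serum amyloid genes Saa4 (1.41), Saa3 (1.42) and Saa2 (1.38) were higher. The last 3 are related in sequence, and Saa3 and Saa2 were not called within scan day 3 (adjusted p = 0.0876 and 0.148).

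Core clock genes, which drive daily cycles in liver, differed in both directions. Of 22 10 were higher and 5 lower. The hour at which each mouse was sampled is not given in the sources used here, and strain and hour cannot be told apart for these genes. Dbp, an output transcription factor that peaks in the day, read 10.78, 10.90, 10.66, 10.85 and 10.46 in B6 and 15.57, 15.62, 15.73, 15.82 and 15.77 in D2. The D2 mice were 31.4-fold higher (adjusted p = 2.29e-11). Arntl (BMAL1), the activator of the opposite phase, read 11.61, 11.66, 11.54, 11.50 and 11.48 in B6 and 8.44, 8.07, 8.27, 8.24 and 7.86 in D2, 10.4-fold lower (adjusted p = 8.97e-09).

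Per3 (4.54), the BMAL1 repressor gene Nr1d1 (3.90) and Wee1 (2.79) were higher along with Dbp, and Cry1 (-2.18), Clock (-0.91) and Npas2 (-1.83) were lower along with Arntl. Npas2 was above background in 1 of 5 D2 mice. Other probes of Nr1d1 read 0.71 (adjusted p = 0.00468) and -0.33, the latter uncalled. Ciart (2.12, adjusted p = 0.0151) and Nfil3 (-0.76, adjusted p = 0.0237) had overlapping groups and lost the call with the slide as a block (adjusted p = 0.0554 and 0.169). The gaps of Dbp, Per3 and Arntl were large on balanced iron as well, 3.52, 3.59 and -2.54.

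The Ciart promoter shows how densely the E-box CACGTG, the site of CLOCK and BMAL1, can stand near a start. It lies at chr3:95882179-95882478 on the minus strand of GRCm38.p6 (RefSeq), with the motif in capitals.
Ciart: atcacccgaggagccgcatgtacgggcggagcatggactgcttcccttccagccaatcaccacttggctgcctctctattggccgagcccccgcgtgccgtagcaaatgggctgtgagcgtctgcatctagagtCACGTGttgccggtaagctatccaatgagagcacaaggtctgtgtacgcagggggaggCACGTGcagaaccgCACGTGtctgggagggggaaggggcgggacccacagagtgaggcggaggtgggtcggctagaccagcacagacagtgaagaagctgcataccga
CACGTG occurs 3 times in it, at bases 135 to 140, 193 to 198 and 207 to 212, and at least once in 8.09% of all promoters. Among the clock list 5 of 18 promoters held it.

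Cell cycle and DNA replication genes were higher for 19 of 32 and lower for 4, median 0.68 against 0.04 on balanced iron. Without normalization between arrays these counts were 8 and 7. The gap of single members was higher than on balanced iron for 1 of the 32 and lower for 0. Within scan day 3 it was higher for 0 and lower for 0. Mcm3, part of the replicative helicase, read 9.26, 9.16, 8.87, 9.09 and 9.22 in B6 and 10.29, 10.52, 10.54, 10.17 and 10.54 in D2 (1.29, adjusted p = 1.88e-10). Mcm5 (1.45) and the cyclin gene Ccnb2 (1.45) were higher as well. Mcm10, a replication initiation gene outside the list, read 11.83, 12.32, 11.998, 12.46 and 12.01 in B6 and 14.63, 14.59, 14.81, 14.85 and 14.70 in D2. Its gap of 2.59 was wider than on balanced (0.77) and deficient iron (1.17; adjusted p = 7.00e-05 and 0.00151), and with the slide as a block the change from deficient iron was not called (adjusted p = 0.0552).

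Cdkn1a, the cell cycle inhibitor p21, stood against the list. It read 11.16, 12.35, 12.48, 11.90 and 12.35 in B6 and 6.02, 6.13, 6.66, 7.51 and 7.60 in D2, 38.4-fold lower (adjusted p = 1.15e-11). The difference was -4.33 on balanced and -4.27 on deficient iron, and in B6 Cdkn1a rose by 1.25 with enrichment. Rrm2, a subunit of ribonucleotide reductase, was lower (-1.09, adjusted p = 0.00415).

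**Figure D3:**
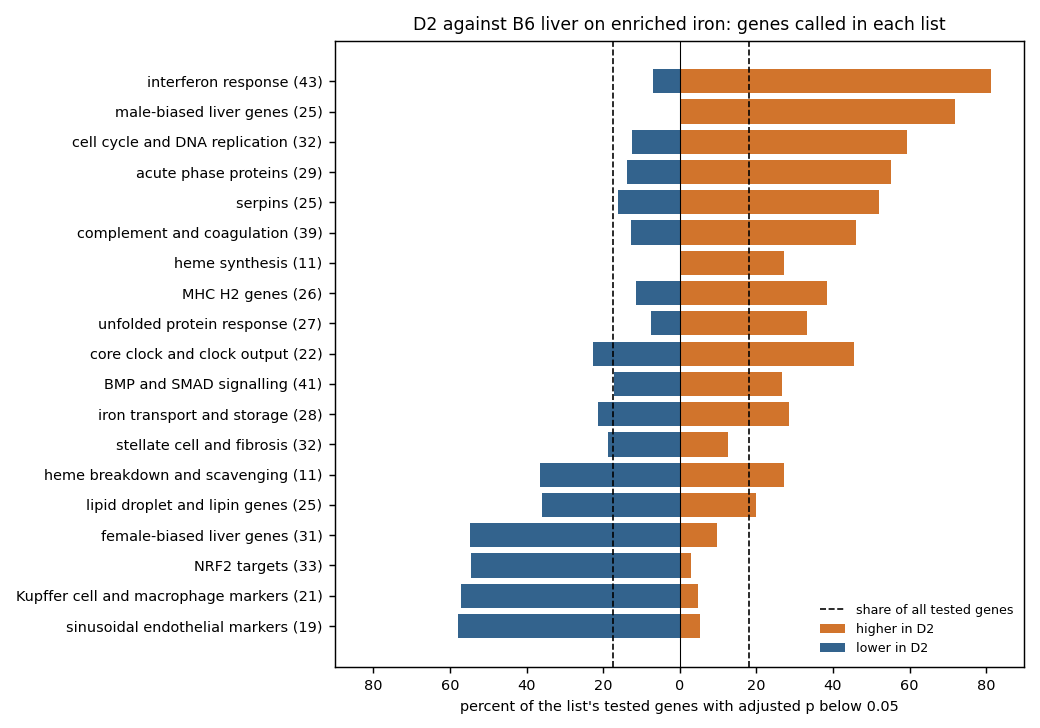
Percent of each gene list's tested members (x axis) called higher (orange, right) or lower (blue, left) in D2 than in B6 liver on enriched iron. The number of tested genes follows each name, and dashed lines mark 18.1% and 17.3%, the shares over all 21071 genes. Of the 19 lists drawn, interferon response and male-biased genes reach farthest to the right, and NRF2 targets, female-biased genes and the Kupffer and endothelial markers farthest to the left.

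**Figure D4:**
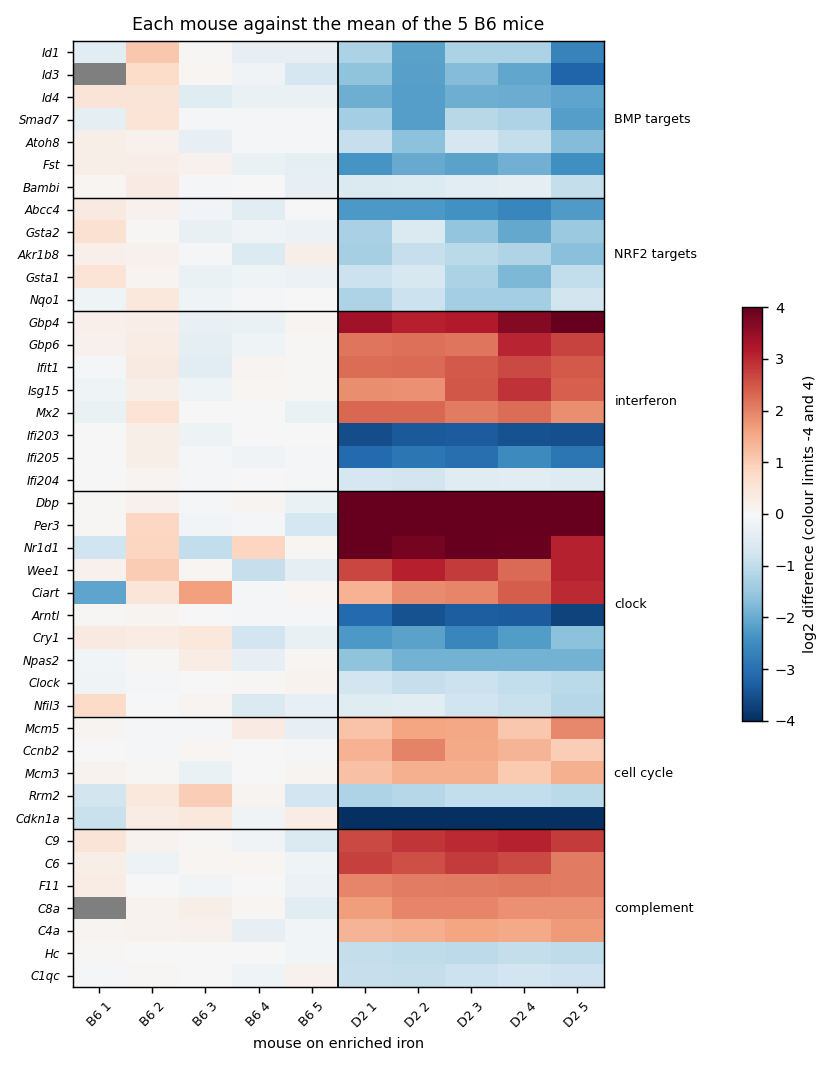
Difference of each mouse on enriched iron (columns) from the mean of the 5 B6 mice for genes of 6 groups (colour, log2, colour limits at -4 and 4). Grey cells had no usable spot (Id3 and C8a in B6 mouse 1). The D2 and B6 values overlap for Ciart and Nfil3 and for none of the other genes drawn.

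Markers of the liver's cell types were read in bulk RNA, where fewer cells of a type and less RNA per cell cannot be told apart. Hepatocyte markers were present, 14 tested with 2 higher and 5 lower (median -0.01), and the log2 of their summed signal was 21.20 to 21.24 in B6 and 21.03 to 21.08 in D2. Of 21 Kupffer cell and macrophage markers 12 were lower and 1 higher (median -0.49). Their log2 summed signal was 16.92 to 17.09 in B6 and 16.61 to 16.72 in D2. On balanced iron 15 were lower. Folr2, the folate receptor of resident macrophages, read 10.66, 10.92, 10.47, 10.45 and 10.78 in B6 and 6.11, 6.35, 6.61, 6.52 and 6.92 in D2 (17.8-fold lower, adjusted p = 2.62e-18). Clec4f, the defining Kupffer lectin, named after its values were seen, differed by -0.60 (adjusted p = 9.94e-04). The lipid receptor gene Trem2 (-1.31), Marco (-1.03) and the ficolin gene Fcna (-0.90) were lower, and Mpeg1 (0.70) was higher. Marco's groups overlapped, and its call ended with the slide as a block (adjusted p = 0.108).

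Sinusoidal endothelial markers, of the cells known as a source of BMP6, were lower for 11 of 19 and higher for 1 (median -0.30). Their log2 summed signal was 16.06 to 16.22 in B6 and 15.69 to 15.82 in D2, and the part of this in the Bmp6 difference was not tested. With scan day as a block 15 were lower and 0 higher, and 6 were lower within scan day 3. On balanced iron, where Bmp6 differed by -0.45, 10 of these markers were lower and their median was -0.30. Lyve1, a hyaluronan receptor, read 11.55, 11.67, 12.32, 11.78 and 11.46 in B6 and 9.27, 8.41, 8.62, 9.12 and 8.66 in D2 (-2.94, adjusted p = 1.13e-11), a gap wider than on balanced iron (-1.76, change adjusted p = 0.0456, and 0.118 with the slide as a block, which ends that call). Gpr182 (-0.64), Oit3 (-0.61), Mrc1 (-0.54) and the scavenger receptor gene Stab1 (-0.53) were lower, with another Stab1 probe at -0.19, uncalled. Dnase1l3, the higher one (0.26), lost its call with either block (adjusted p = 0.0506 and 0.0702).

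Markers of other cell types were read as well, against 18.1% of all genes higher and 17.3% lower in D2. Of 20 lymphocyte and NK markers 3 were lower and 1 higher, at a summed 11.85 to 12.41 in B6 and 11.71 to 12.29 in D2. The other 16 were not called. The NK genes Gzmb (-2.82) and Klrb1c (-1.86) were lower, and were above background in 2 and 3 of 5 D2 mice. Ncr1 of the same list went the other way, above background on 0 B6 and 4 D2 arrays. Klra8 was above it on 5 B6 and 0 D2 arrays, and neither of these was tested. Cholangiocyte markers were lower for 3 of 10, higher for 1 and not called for 6, and within scan day 3 lower for 2 and higher for 0. Their summed level was 12.67 to 13.48 in B6 and 12.06 to 12.32 in D2. Krt19, a bile duct keratin, read 8.34, 8.12, 8.22, 8.13 and 7.79 in B6 and 6.77, 6.99, 7.03, 7.04 and 6.94 in D2 (-1.16, adjusted p = 3.21e-06; balanced -0.10, change adjusted p = 0.0237). Of 10 erythroid markers 1 was lower and 2 were higher, Alas2 and the transcription factor gene Klf1 (1.77). Genes of other cell types that were above background on all 10 arrays included Hba-a1, Hbb-bt and Slc4a1 of red cells, S100a8, S100a9 and Mpo of neutrophils, Fabp4 of fat and Acta1 and Myh1 of muscle. Ermap of red cells, Elane of neutrophils, Lep of fat and Myl1 of muscle were above it on none. The summed level of the erythroid markers was 16.46 to 16.87 in B6 and 16.32 to 17.21 in D2. Neutrophil markers summed to 11.27 to 11.93 in B6 and 11.27 to 11.87 in D2, pancreas and gut markers to 15.07 to 15.39 in B6 and 15.71 to 15.99 in D2, and adipose and muscle markers to 11.74 to 12.81 in B6 and 11.89 to 12.41 in D2. The part of these cells in the gene differences was not tested. Stellate cell and fibrosis genes were higher for 4 and lower for 6 of 32, and for 2 and 10 with scan day as a block. Col1a1 of fibrillar collagen differed by -1.31 with overlapping groups, and its other probes read -1.04, called, and -0.18, uncalled.

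Lipid droplet genes were lower for 9 and higher for 5 of 25 (median -0.27). Lpin1, a phosphatidate phosphatase and co-regulator, read 12.89, 13.88, 14.68, 14.11 and 13.24 in B6 and 9.66, 9.60, 9.59, 9.86 and 11.22 in D2 (-3.78, adjusted p = 2.48e-08). Plin5 (-1.97) and Plin4 (-1.89), coat proteins of droplets, were lower without overlap, and Cidec (-2.44) was lower with overlap. Mogat2, an acylglycerol acyltransferase gene, was higher (2.58, adjusted p = 1.33e-09). Pdk4, which turns off pyruvate oxidation, read 11.07, 12.18, 11.96, 11.73 and 13.12 in B6 and 8.50, 8.99, 8.86, 8.60 and 8.56 in D2 (-3.31, adjusted p = 8.35e-11). Genes of factors known to regulate it differed both ways, Ppara at 1.61 and Ppargc1a at -1.57.

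Of 38 fatty acid oxidation genes 10 were higher and 7 lower, and of 24 fatty acid synthesis genes 8 and 5. Srebf1, the lipogenic transcription factor gene, was higher (1.60, adjusted p = 1.86e-05). Fasn, fatty acid synthase, was lower (-0.76, with 4 D2 mice fitted), and its call ended with the slide as a block (adjusted p = 0.188). Another Fasn probe read -0.60, uncalled. The hormone gene Fgf21 differed by 1.38 (adjusted p = 0.0104), with overlapping groups and without a call under the slide block (adjusted p = 0.0581). Its other probe read 0.99, uncalled. Cholesterol synthesis genes gave 4 higher and 6 lower of 34, against 15 and 4 on balanced iron. The gap differed from balanced iron for 0 of them (limma). Over all genes 18.1% were higher and 17.3% lower on enriched iron. Apoc3, a brake on triglyceride clearance, read 16.99, 17.10, 17.07, 17.04 and 17.09 in B6 and 16.53, 16.51, 16.49, 16.58 and 16.50 in D2. Its difference was -0.53 (adjusted p = 2.15e-09) on enriched and -0.17 on balanced iron, and the gap differed from both other diets (adjusted p = 0.00767 and 4.02e-04).

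Several of the largest differences were large on balanced iron too. Besides Ntrk2, the D2 excesses included Rassf4 (7.03, 7.25, 6.72, 6.88 and 7.63 in B6 and 12.85, 13.00, 12.88, 12.95 and 12.63 in D2; 5.76), a Ras-association gene, and Ctse, cathepsin E (7.72, 7.81, 7.74, 7.75 and 7.79 and 13.10, 13.03, 12.73, 12.83 and 12.89; 5.16). The strains did not overlap, and on balanced iron the differences were 5.53 and 5.59. Corin, a protease gene (5.73), Dct, a melanin enzyme gene (5.39), Extl1 (3.89), Serpinb8 (3.84) and the thyroid hormone binding protein gene Crym (3.75) were far higher too. Lama3, a laminin chain, was 4.07 on enriched and 1.56 on balanced iron (change adjusted p = 0.00387), and Fmn2, a formin, 4.03. Other probes of Lama3 (-0.22), Fmn2 (-0.43) and Extl1 (0.01) did not show these gaps and were not called. The other probes of Rassf4 spread from 1.58 to 6.00, and that of Serpinb8 read 1.99, all called.

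Among the genes far lower in D2, Nalp12, an innate immune regulator gene, read 13.50, 13.55, 13.77, 13.70 and 13.72 in B6 and 7.49, 7.29, 7.80, 7.94 and 6.36 in D2 (-6.27, adjusted p = 4.94e-14). Tceanc2 (-4.60) and Zfp874a (-4.64) were lower by similar amounts, and their balanced differences were -4.22 and -4.30. Nnmt, which methylates nicotinamide, read 14.65, 14.67, 15.88, 14.66 and 14.31 in B6 and 9.87, 11.30, 9.49, 10.61 and 11.49 in D2 (-4.28, adjusted p = 1.01e-06). The leptin receptor gene Lepr (-4.07), the neprilysin gene Mme (-4.01), Fin15 (-3.94) and Tmc7 (-3.83) were lower as well. Another probe of Nalp12 gave a smaller gap (-1.19), and another probe of Tmc7 read 2.07 higher in D2 (adjusted p = 0.00129). Esm1, an endothelial proteoglycan gene, read 9.14, 8.67, 9.12, 10.04 and 8.47 in B6 and 5.603, 4.95, 5.27, 5.53 and 5.57 in D2. Its gap of -3.70 was wider than on balanced iron (-1.55, change adjusted p = 0.0413), a call that ended with the slide as a block (adjusted p = 0.142). Whether strain variants lie under any probe was not tested.

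On enriched iron some genes were well above background in 1 strain alone. This held on 5 of 5 B6 and no D2 arrays for 105 genes, 41 of them with a curated name. The reverse held for 27 genes, 17 with such a name. Over all 3 diets 11 of the 105 and 6 of the 27 were well above background on at least 3 arrays of each strain. Nsun7, Wif1 and Acsm2 were among those 6. Detection as such was lower on the enriched D2 arrays (68.8% of probes against 72.2%), and its part in these counts was not tested. Trim12, a tripartite motif gene, read 9.93 to 10.30 in B6, at least 61.7-fold above D2. Rab6b followed at 17.4-fold, Dusp8 at 9.24-fold and Tafa2 at 9.12-fold, each as a lower bound. Zfp14 (3.98-fold), Prdm16 (3.74-fold) and Fbxo44 (3.41-fold) were smaller bounds of the same kind. On the D2 side, after Ifi202b and H2-Ea, stood Nsun7 at no less than 8.08-fold, Erp27 at 5.48-fold, the WNT inhibitor gene Wif1 at 5.31-fold, Acsm2 at 5.05-fold and Adcy10 at 4.95-fold. Each bound compares the bright group's mean with the dim group's mean, raised where needed to the lowest signal that counted as well above background. Only genes with a bound above 1-fold were counted. The smallest were 1.03-fold on the B6 side and 1.57-fold on the D2 side, close to the floor.

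A last set of genes came forward through the change of the gap rather than its size on enriched iron. Cd63, a lysosomal tetraspanin gene, read 11.68, 11.51, 11.55, 11.47 and 11.66 in B6 and 9.54, 9.65, 9.93, 9.72 and 9.06 in D2. Its gap of -1.99 was wider than on balanced (-0.46) and deficient iron (-0.88; adjusted p = 0.00124 and 0.0288, the latter 0.0552 with the slide as a block), with a rise of 1.37 in B6. Akr1b3, aldose reductase, went from 0.16 on balanced to -0.68 on enriched iron, and Chpf, a chondroitin polymerase gene, from 0.17 to -1.001 (change adjusted p = 6.90e-04 and 5.34e-04). Gata3 fell behind in D2 in the same way (-2.20 against 0.05), although it was above background in 1 of 5 D2 mice. In each of these the B6 level rose with enrichment, by 0.99, 1.09 and 1.87.

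Chchd6, a mitochondrial cristae gene, moved in opposite directions with enrichment, by 0.38 in B6 and -0.52 in D2 (both called). Its difference went from 0.38 on balanced to -0.52 on enriched iron (change adjusted p = 0.00157). Plscr2, a scramblase gene, was higher in D2 on enriched (0.47) and lower on deficient iron (-0.70; change adjusted p = 4.44e-07). Plscr1 was not called on enriched iron (0.17, adjusted p = 0.175) but its gap differed from balanced (-0.40) and deficient iron (-0.80), though other probes of it read -0.30 and -0.54. Rangap1 (0.92 against 0.18 on balanced iron) widened and Lad1 turned from -1.91 to 0.82 (change adjusted p = 0.00149 and 6.40e-04). The call of Lad1 on enriched iron itself ended with the slide as a block (adjusted p = 0.0777).

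Genes with known differences between these strains gave 5 higher and 5 lower of 18 tested. Nnt, the mitochondrial transhydrogenase, which some C57BL/6 substrains are known to carry with a deletion, read 12.03, 12.06, 11.96, 11.93 and 11.92 in B6 and 13.52, 13.69, 13.61, 13.64 and 13.76 in D2 (1.66, adjusted p = 5.85e-15). The substrain is not given in the sources used here, and of the other Nnt probes 2 read 1.52 and 1.56 and 1 read -0.36. Alad, Hc and Gsta2, described above with their pathways, belong to the same list.

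The other lists are given by their counts, higher and then lower in D2, against 18.1% and 17.3% over all genes. Several are near or below those shares. They were 9 and 7 of 30 Cyp2 family genes, 8 and 12 of 37 other P450 and nuclear receptor genes, 9 and 8 of 23 bile acid genes, 8 and 11 of 32 xenobiotic transporter genes and 13 and 4 of 25 serpin genes. Mitochondrial, stress and fuel genes gave 2 and 8 of 34 respiratory chain genes, 3 and 4 of 18 iron-sulfur cluster genes, 4 and 4 of 21 hypoxia genes, 9 and 2 of 27 unfolded protein response genes, 8 and 8 of 25 glucose and glycogen genes and 2 and 4 of 20 apolipoprotein genes. Without normalization between arrays the respiratory chain counts were 2 and 23 and the serpin counts 7 and 5.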

How the data were processed

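Liver RNA of 30 mice, 5 of each strain on each of 3 diets, was read on 1-colour Agilent arrays. The deposited array files hold intensity values that the scanner software background-subtracted (Agilent Feature Extraction 9.1.3.1, per the file headers), and the deposited value table was identical to them. Outlier-marked and control spots were left out, and spots of 1 probe were averaged. Signals were quantile normalized as the design text states, raised to a floor of 15.1 and log2 transformed. Probes well above background on at least 3 arrays of each strain were kept (29985 of 41174), and each of 21071 genes was represented by its probe of highest mean signal. Probe accessions were matched to RefSeq symbols for 22944 probes and symbols for 6664, and 11566 kept the name in the files.

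Strain differences and their change with diet were fitted with limma 3.58.1 in R 4.3.3 over 6 group means of all arrays, with Benjamini-Hochberg adjustment over all genes, two-sided, at 0.05. Tables were made with Python 3.11.15. The fit was tested on simulated normal values for the enriched comparison, with 21071 genes. It recovered 97.0%, 83.6% and 47.8% of the 66, 67 and 67 genes changed by 2, 1 and 0.5 on the log2 scale, with 14 false calls. Far fewer genes were changed there than were called in the data, so these shares need not hold for the data. The members and lists were chosen with earlier results of these data known. Named genes were first the 15 largest called differences per direction with signal on all 10 arrays and no overlap. Up to 8 per direction were named for being well above background in 1 strain alone on enriched iron. For the change of the gap, the 10 (balanced) and 5 (deficient) smallest adjusted p per direction were taken. The title and hepcidin genes with Tfrc, and up to 5 called members per direction of each list, completed the rule. Alternatives covered normalization, background, filter, floor, probe choice, scan day, slide, variance model and each left-out mouse. List counts under these alternatives were added after seeing the data. Some items that the rule names are not reported here.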

Additional observations from a re-analysis of the deposited data

Results flagged for a closer look

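Of the named genes, 47 had a strain gap on enriched iron that differed from the gap on balanced iron (limma interaction, adjusted p below 0.05), 25 higher and 22 lower, and 31 had one that differed from deficient iron, 19 higher and 12 lower. Both held for 27. Values are differences of differences on the log2 scale, and many of these genes were named for this change. Relative to balanced iron the D2 minus B6 gap was higher for Hsd3b5 (6.83), Slco1a1 (3.76), Elovl3 (2.95), Lad1 (2.73), Lama3 (2.51), C9 (2.29), C6 (2.15), Srd5a1 (2.12) and Mup5 (1.90). It was also higher there for Mcm10 (1.82), Alas2 (1.66), Nudt7 (1.47), C8a (1.44), Egfr (1.44), Sult2a8 (1.21), Cyp2c23 (1.18), C4a (0.93) and Rangap1 (0.75). Further higher gaps were those of Mup3 (0.74), Ghr (0.65), Serpina1e (0.62), Plscr1 (0.58), Hc (0.52), Plscr2 (0.48) and Mup1 (0.31). Relative to balanced iron the D2 minus B6 gap was lower for Slc22a29 (-4.73), Cyp2b13 (-4.29), Cyp2b10 (-3.40), Sult3a1 (-2.44), Id4 (-2.30), Gata3 (-2.24), Esm1 (-2.15), Fst (-1.68) and Mgst3 (-1.67). It was also lower there for Smad7 (-1.66), Cd63 (-1.53), Slco1a4 (-1.31), Abcc4 (-1.25), Lyve1 (-1.18), Chpf (-1.18), Akr1b8 (-1.15), Krt19 (-1.07) and Bambi (-1.07). Further lower gaps were those of Chchd6 (-0.90), Akr1b3 (-0.84), Bmp6 (-0.81) and Apoc3 (-0.37).

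Relative to deficient iron the D2 minus B6 gap was higher for Hsd3b5 (4.81), Slco1a1 (2.78), Lama3 (1.96), Cyp2c23 (1.90), Lad1 (1.73), C9 (1.62), Srd5a1 (1.56), Mcm10 (1.42) and Alas2 (1.30). It was also higher there for Folr2 (1.27), Corin (1.25), Plscr2 (1.17), C8a (1.16), Nudt7 (1.07), Cyp1a2 (1.04), Plscr1 (0.97), Sult2a8 (0.81) and Mup3 (0.71). Further higher gaps were those of Ghr (0.62). Relative to deficient iron the D2 minus B6 gap was lower for Id4 (-2.18), Id3 (-2.01), Gata3 (-1.95), Slco1a4 (-1.87), Smad7 (-1.61), Cd63 (-1.11), Chpf (-1.08), Bmp6 (-1.08) and Akr1b8 (-0.999). It was also lower there for Bambi (-0.89), Akr1b3 (-0.80) and Apoc3 (-0.51).

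Single mice stood apart from the other 4 of their group in 21 of 353 groups of named-gene values tested. Chance alone marks about 1 in 20 groups of normal values without ties. The measure is the gap to the nearest mouse as a share of the group's range. It was reached for Neo1 (D2 mouse 2 lowest, 0.822), Mon1a (B6 mouse 4 highest, 0.740), Slc48a1 (B6 mouse 4 lowest, 0.803), Nqo1 (B6 mouse 2 highest, 0.714), Chchd6 (D2 mouse 5 highest, 0.849), Mt1 (B6 mouse 5 lowest, 0.785) and Mt3 (D2 mouse 4 lowest, 0.837). Such gaps were also seen for C6 (D2 mouse 5 lowest, 0.721), Mup1 (B6 mouse 3 highest, 0.989), Cyp2b13 (B6 mouse 4 lowest, 0.722), Sult3a1 (D2 mouse 5 highest, 1), Ntrk2 (D2 mouse 2 lowest, 0.733), Igfals (D2 mouse 4 highest, 0.772) and Tap1 (D2 mouse 4 highest, 0.809). The remaining ones were Npas2 (D2 mouse 1 highest, 1), Marco (D2 mouse 1 highest, 0.811), Crym (D2 mouse 1 lowest, 0.740), Nnmt (B6 mouse 3 highest, 0.767), Lpin1 (D2 mouse 5 highest, 0.835), Cyp7a1 (B6 mouse 1 highest, 0.799) and Ugt1a1 (D2 mouse 5 highest, 0.739). For Sult3a1 and Npas2 the other 4 D2 mice were tied at the floor of 3.92, which fixes the measure at 1. For Mup1 the other 4 B6 mice read 18.286 to 18.2863 and the marked mouse 18.3143, a small distance.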

How the results depend on the processing

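The count of 7471 genes differing between the strains was 2045 with the dimmest probe of the 6379 genes with several probes, a smaller set of genes, and 1325 within scan day 2, which holds fewer arrays. Leaving out each mouse gave 6715 to 7537. The 234 genes whose gap differed from balanced iron became 894 without normalization between arrays, 24 with the dimmest probe, 367 with scan day as a block, 356 with array weights, 15 within scan day 2 and 487 within scan day 3. Of the 234, 225 were also called with scan day as a block, 145 with the slide as a block, 47 on day 3 alone and 0 on day 2 alone. Leaving out each mouse gave 142 to 291, with 150 and 154 without balanced D2 mice 1 and 4 and 142 and 155 without enriched D2 mice 2 and 3. The 141 genes whose gap differed from deficient iron became 67 without normalization (22 higher and 45 lower, against 75 and 66), 14 with the dimmest probe, 61 with the slide as a block, 215 with an intensity trend, 413 with array weights, 13 within scan day 2 and 0 within scan day 3 (limma, where 1104 genes had an unadjusted p below 0.05). Of the 141, 127 were also called with scan day and 46 with the slide as a block. Leaving out each mouse gave 71 to 173. The values were 85 and 75 without enriched B6 mice 4 and 5, 89 and 76 without deficient B6 mice 2 and 5, 80, 78, 77 and 89 without enriched D2 mice 2, 3, 4 and 5, and 71 without deficient D2 mouse 1. Beyond the smaller sets named, the cause was not tested.

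Of the 177 named genes 174 were called. With the dimmest probe Smurf1 turned to -0.0096, Slc11a2 to -0.24, Pcbp2 to 0.30, Abcb10 to -0.16, Slc48a1 to 0.17, Srd5a1 to -1.50, Ifi203 to 1.12, Lama3 to -0.22, Fmn2 to -0.43, Nnt to -0.36 and Plscr1 to -0.30. With the mean of probes Plscr1 read -0.22. Plscr1 read -0.010 without normalization, Txnrd1 -0.041 within scan day 2 and Hamp 0.12 with the slide as a block. Leaving out 1 of the 10 mice kept the direction and the call, or its absence, in 1739 of 1770 values and the direction in all of them. Direction and the call, or its absence, held for 172 of the 177 genes with scan day as a block. They held for 166 with the slide as a block, 160 without normalization and 148 within scan day 3. Over the settings other than leaving out a mouse 100 genes lost the call at least once, and they are not all listed here. Leaving out 1 of the 10 mice ended the call of 8 genes. The calls lost were those of Furin (without B6 mouse 1, B6 mouse 4, D2 mouse 3 and D2 mouse 4), Mgst3 (B6 mouse 3, B6 mouse 4, D2 mouse 2 and D2 mouse 5), Mt1 (B6 mouse 1, B6 mouse 5, D2 mouse 2, D2 mouse 3, D2 mouse 4 and D2 mouse 5), Cux2 (B6 mouse 1, B6 mouse 4, B6 mouse 5, D2 mouse 1, D2 mouse 3 and D2 mouse 5), Ciart (B6 mouse 1), Nfil3 (B6 mouse 1, D2 mouse 4 and D2 mouse 5), Dnase1l3 (B6 mouse 3, B6 mouse 4 and D2 mouse 1) and Lad1 (B6 mouse 1, B6 mouse 3, D2 mouse 3 and D2 mouse 4). Signals near background limit the low genes, and the number of arrays limits the precision.

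No fit within scan day 1 was run, since no enriched B6 array lies in it. No paired analysis was possible because the replicate numbers only follow the order of deposit and pair no mice across the groups.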
